A study of Mus musculus with 64 samples.

Results

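The effect of a mutant cardiac troponin T on long noncoding RNAs (lncRNAs) of the mouse heart was read from 64 libraries, 31 from TG mice and 33 from nTG mice. The members are the transcripts of the deposited lncRNA table with a mean of at least 5 counts per library, which kept 1103 of 3787 transcripts. The other 2684 lay below that level and were not tested in the main comparison. TG mice carried cTnT-delta160E, a cardiac troponin T that lacks a glutamate and whose human counterpart causes hypertrophic cardiomyopathy, and nTG mice did not carry it. All mice were C57BL/6J and were labelled M or F. They either ran treadmill intervals (HIIT, for 6 weeks) or did not exercise (Sed), which gives 4 strata in each of which TG was set against nTG. The TG groups held 9 Sed M, 8 HIIT M, 8 Sed F and 6 HIIT F mice, and the nTG groups held 7, 8, 8 and 10 in the same order. These counts of 6 to 10 come from the sample labels, while the series description states 7 to 9. The age of the mice, the promoter that drives the transgene and the number of founder lines are not given in the sources used here.

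An lncRNA is a transcript that is not known to be translated into a protein. Many are made next to a protein-coding gene, from the opposite strand, from a promoter shared with it, or from within its introns, and some act on the expression of that neighbour or in the nucleus more widely. In the heart, Mhrt, transcribed opposite to the myosin heavy chain Myh7, and Kcnq1ot1, made from within the potassium channel gene Kcnq1 in the opposite direction, are among the best known.

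Of the 1103 transcripts, 102 differed between TG and nTG hearts over the 4 strata at an adjusted p under 0.05, a share of 9.25% of those tested (edgeR's quasi-likelihood F test, Benjamini-Hochberg adjustment). In TG, 55 transcripts were higher (4.99% of those tested) and 47 were lower (4.26%). Unadjusted p was under 0.05 for 247 transcripts. The balance of higher and lower moved with the scaling, as given below, and DESeq2 called 38 higher and 68 lower. The changes were small. The log2 fold change was under 0.5 in size for 71 of the 102, between 0.5 and 1 for 30, and beyond 1 for a single transcript, RP23-166L22.2. The median log2 fold change was 0.336 among those higher and -0.367 among those lower, beside 0.0833 over all 1103. No transcript separated all TG libraries from all nTG libraries, and 10 (0.907% of those tested) did so within at least 1 stratum, 8 of them among the 102. Of the 102, 93 (91.2%) had the same sign in all 4 strata and 9 in 3 of them. Over all transcripts tested, 27.8% had the same sign in all 4. The 102 were called from these same libraries, which favours shared signs, so this is no separate check.

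The promoters of 4 transcripts described below are shown because each lies beside or opposite to a protein-coding gene whose own level was measured. For Gm17586 and 4632427E13Rik the coding gene starts in the other direction within the window, and for the other two its start lies outside the window. They come from RefSeq (GRCm38.p6), run 5′ to 3′ on the lncRNA's strand, and span 250 bases before the annotated start and 50 from it. Gm17586 (chr11:120633500-120633799, plus strand) starts 168 bases from the gene for the small Maf protein Mafg, which is read in the other direction and whose start falls in the window. 4632427E13Rik (chr7:92741410-92741709, minus strand) starts 135 bases from Rab30, a small GTPase of the Golgi, again in the other direction. E230013L22Rik (chr8:11477679-11477978, plus strand) overlaps the small GTPase gene Rab20 on the opposite strand. F630028O10Rik (chrX:96239676-96239975, plus strand) has its far end, not this promoter, 3567 bases from Vsig4, a complement receptor of tissue macrophages that is read toward it from the opposite strand. Capitals mark matches to 6 motifs searched on both strands. These were the antioxidant response element core, spelled TGACNNNGC, the AP-1 site, spelled TGANTCA, the MCAT element of muscle genes, spelled CATTCC, the site of GATA factors, spelled AGATAA, the CCAAT box, and the box spelled TATAAA.
Gm17586: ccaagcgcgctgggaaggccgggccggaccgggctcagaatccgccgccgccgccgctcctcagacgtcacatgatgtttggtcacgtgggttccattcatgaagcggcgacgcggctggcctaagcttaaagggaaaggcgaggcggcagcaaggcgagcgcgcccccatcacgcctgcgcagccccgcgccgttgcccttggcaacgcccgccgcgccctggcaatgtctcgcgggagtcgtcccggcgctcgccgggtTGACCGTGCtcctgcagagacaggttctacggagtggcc
4632427E13Rik: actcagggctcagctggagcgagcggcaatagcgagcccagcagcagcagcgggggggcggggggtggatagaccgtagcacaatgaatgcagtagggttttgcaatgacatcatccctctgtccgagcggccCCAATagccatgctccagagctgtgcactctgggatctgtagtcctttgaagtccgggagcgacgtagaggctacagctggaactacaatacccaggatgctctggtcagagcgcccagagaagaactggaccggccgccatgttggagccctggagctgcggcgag
E230013L22Rik: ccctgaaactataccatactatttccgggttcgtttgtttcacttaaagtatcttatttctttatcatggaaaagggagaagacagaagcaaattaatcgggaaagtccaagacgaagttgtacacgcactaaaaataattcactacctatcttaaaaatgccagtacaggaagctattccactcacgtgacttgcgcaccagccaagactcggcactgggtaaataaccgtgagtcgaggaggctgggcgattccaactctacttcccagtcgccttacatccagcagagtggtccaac
F630028O10Rik: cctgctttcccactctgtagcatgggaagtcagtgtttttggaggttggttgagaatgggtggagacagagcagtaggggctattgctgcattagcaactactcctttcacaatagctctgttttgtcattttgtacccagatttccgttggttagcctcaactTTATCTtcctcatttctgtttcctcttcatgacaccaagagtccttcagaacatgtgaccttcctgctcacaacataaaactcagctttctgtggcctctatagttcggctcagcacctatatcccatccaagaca

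TGACNNNGC, the core to which small Maf proteins bind together with their partners, occurs in the Gm17586 window, and 12.4% of the 32851 RefSeq promoter windows of 300 bases hold it. The 4632427E13Rik window holds CCAAT, as 37.4% of all windows do. The F630028O10Rik window holds AGATAA on the other strand, as 11.2% of all windows do. The E230013L22Rik window holds none of the 6. The AP-1 site, the MCAT element and the last of the 6 motifs, which occur in 7.81%, 14.7% and 13.6% of all windows, have no match in the 4. These matches describe the letters only.

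The level of each transcript is given as CPM, its counts scaled to the library's lncRNA total without Gm42418, since that transcript alone held between 50.85% and 76.61% of all lncRNA counts of a library. The remaining counts came to between 64584 and 120282 per library. Gm42418 overlaps a ribosomal RNA repeat in the mouse genome, and its share was 63.64% ± 3.96 (SD, n = 33) in nTG and 65.64% ± 4.4 (SD, n = 31) in TG, a difference of 2 percentage points (two-sided permutation test within strata, p = 0.0494, adjusted p = 0.0988 over 4 library measures). Without the Sed F mice that difference was 0.778 percentage points (permutation p = 0.42), and without the Sed M mice 1.39 (permutation p = 0.268). It was 2.95 without the HIIT F mice (permutation p = 0.0206) and 2.87 without the HIIT M mice (permutation p = 0.0161). In the gene table of the same hearts, the columns taken by name did not match the lncRNA columns. Over 388 transcripts present in both tables, the correlation of same-named columns had a median of -0.0103, while each lncRNA column had 1 gene column with r between 0.598 and 0.863 and no other above 0.403. These 64 best pairs were one to one, and 1 pair had the same name. With columns joined in this way, Tnnt2, which encodes cardiac troponin T, lay between 2665 and 3428 CPM in nTG and between 6903 and 12000 CPM in TG, and with columns by name the groups overlapped. The lncRNA results use names alone. Gene values are given with joined columns, with by-name values beside them for the named neighbours that passed the threshold.

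The 3 falls with the smallest p were in Gm43672, Gm9905 and Banf2os. Gm43672, an intergenic lncRNA (chr3:22074412-22076142, minus strand) that starts 510 bases from Tbl1xr1, a subunit of nuclear receptor corepressor complexes, had the smallest p of the table. Its level in nTG ran from 5634 to 9717 CPM with a median of 7569, and in TG from 4111 to 7465 with a median of 5270. In Sed F the nTG mice lay between 6428 and 8798 CPM and the TG mice between 4180 and 6077. In HIIT F the ranges were 6529 to 9571 and 4125 to 6176 CPM. The groups did not overlap in these strata of F mice and overlapped in those of M mice. The log2 fold change was -0.50 ± 0.05 (SE; adjusted p = 9.18e-14, edgeR).

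Gm9905 (chr7:121033252-121035096, minus strand) lies opposite to Mettl9, a histidine methyltransferase. Its level was 1505 to 3351 CPM in nTG (median 2496) and 1221 to 2356 CPM in TG (median 1671). The groups were apart in HIIT F, where the lowest nTG mouse had 1971 CPM and the highest TG mouse 1958, and overlapped in the other 3 strata. The log2 fold change was -0.53 ± 0.06 (SE; adjusted p = 2.36e-11, edgeR). Banf2os (chr2:144059138-144068806, minus strand), opposite to the barrier-to-autointegration paralog Banf2, fell further from a lower level. It had 220.4 to 776.7 CPM in nTG (median 414.2) and 54.33 to 474 CPM in TG (median 232.3), with overlap in every stratum. Its log2 fold change was -0.93 ± 0.12 (SE; adjusted p = 3.55e-09, edgeR).

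E230013L22Rik, opposite to Rab20, averaged 2153 ± 345.2 CPM in the 33 nTG libraries and 1625 ± 326.3 in the 31 TG libraries (SD). Its log2 fold change was -0.43 ± 0.06 (SE; adjusted p = 2.31e-07, edgeR). Gm45012 runs opposite to Mogat2, an acyltransferase of fat synthesis, and fell from 2489 ± 357 to 1948 ± 355.4 CPM (log2 fold change -0.37 ± 0.06). Gm10435 fell from 6711 ± 1232 to 5247 ± 818.3 CPM (-0.33 ± 0.06). All 3 lay lower in TG in each of the 4 strata.

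Among the other transcripts that fell, 6330403L08Rik, opposite to the growth factor gene Pdgfa, was one of the most abundant, with 20464 ± 2332 CPM in nTG and 17158 ± 2292 in TG (log2 fold change -0.25 ± 0.04). Prr33, an intergenic lncRNA in the annotation used here that runs opposite to the leukocyte gene Lsp1 and the skeletal troponin gene Tnnt3, fell by 0.32 ± 0.06 on the log2 scale. Gm42918, opposite to Trafd1, a regulator of innate immune signalling, fell by 0.62 ± 0.12. G730003C15Rik, opposite to the cilium gene Tmem237, fell by 0.48 ± 0.10. RP23-166L22.2, a transcript known only by a clone name, had the largest change of the 102 on a mean of 6.28 counts. It had 94.7 ± 51.4 CPM in nTG and 42.8 ± 31.7 in TG, with 0 counts in at least 1 TG library of both F strata. Its log2 fold change was -1.28 ± 0.23 (SE; adjusted p = 1.98e-05, edgeR), and it did not match the annotation, so no position is given.

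Gm17586 led the transcripts that rose. It had 78.8 to 380.2 CPM in nTG (median 190.5) and 152.8 to 693.4 CPM in TG (median 315.1). In Sed M the nTG mice lay between 127 and 292 CPM and the TG mice between 222.2 and 534, and in HIIT F between 78.76 and 325 against 246 and 540.6. TG was higher in all 4 strata, and the groups overlapped in each. The log2 fold change was 0.79 ± 0.12 (SE; adjusted p = 6.40e-07, edgeR), on a mean of 24.3 counts per library.

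F630028O10Rik, near Vsig4, had 560 ± 163 CPM in nTG and 772 ± 164 CPM in TG, a log2 fold change of 0.47 ± 0.09 (SE; adjusted p = 9.02e-05, edgeR). The value varied over the 4 strata. The log2 fold change was 0.79 in Sed M, 0.70 in HIIT M and 0.47 in HIIT F, and in Sed F it was -0.05, with 629 to 792.1 CPM in nTG and 528.3 to 994.2 in TG. Gm10115, within an intron of the splicing regulator gene Celf2 and on its strand, rose by 0.48 ± 0.10 on the log2 scale, from 357 ± 92.2 to 502 ± 134 CPM. Gm15866, opposite to C1qtnf7, which encodes a secreted protein of the adiponectin-like family, rose by 0.53 ± 0.11. In Sed M its highest nTG mouse had 246.5 CPM and its lowest TG mouse 263.2, so the groups did not overlap there.

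Rises of the more abundant transcripts were smaller. Gm26782, opposite to the vault and telomerase protein gene Tep1, had 8327 ± 1228 CPM in nTG and 9957 ± 1561 in TG (log2 fold change 0.23 ± 0.05). Its row in the gene table of the same hearts had -0.01 with joined columns (adjusted p = 0.85, edgeR). Gm29129 and RP23-235I2.1 rose by 0.29 ± 0.05 and 0.28 ± 0.05. The groups did not overlap in HIIT F for Gm29129 and in Sed M for RP23-235I2.1. 4632427E13Rik, which starts beside Rab30, rose by 0.25 ± 0.05, from 2609 ± 391 to 3087 ± 386 CPM. 0610012D04Rik, opposite to Ttc7, a scaffold of a lipid kinase complex, rose by 0.34 ± 0.08, and Gm37352 by 0.21 ± 0.05. The less abundant Gm43953, which overlaps the ubiquitin ligase gene Pdzrn3 on its strand, rose by 0.43 ± 0.10. Its level went from 413 ± 148 to 555 ± 127 CPM.

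**Figure D1:**
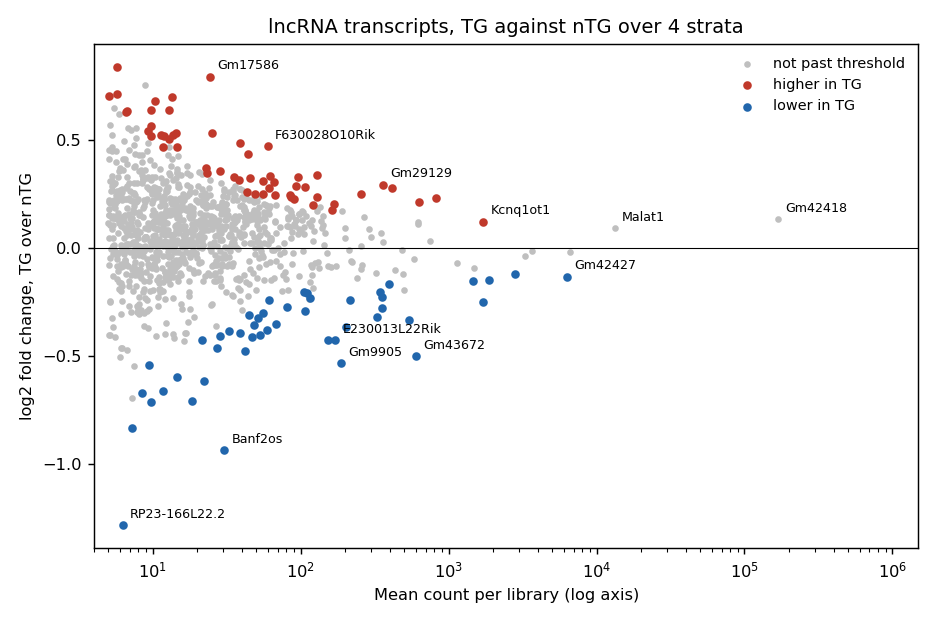
Each point is 1 of the 1103 tested transcripts, with its mean count per library on a log axis and its log2 fold change of TG over nTG on the vertical axis. Red points (55) were higher and blue points (47) lower at an adjusted p under 0.05, and the called changes narrow toward 0 as the mean count grows.

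**Figure D2:**
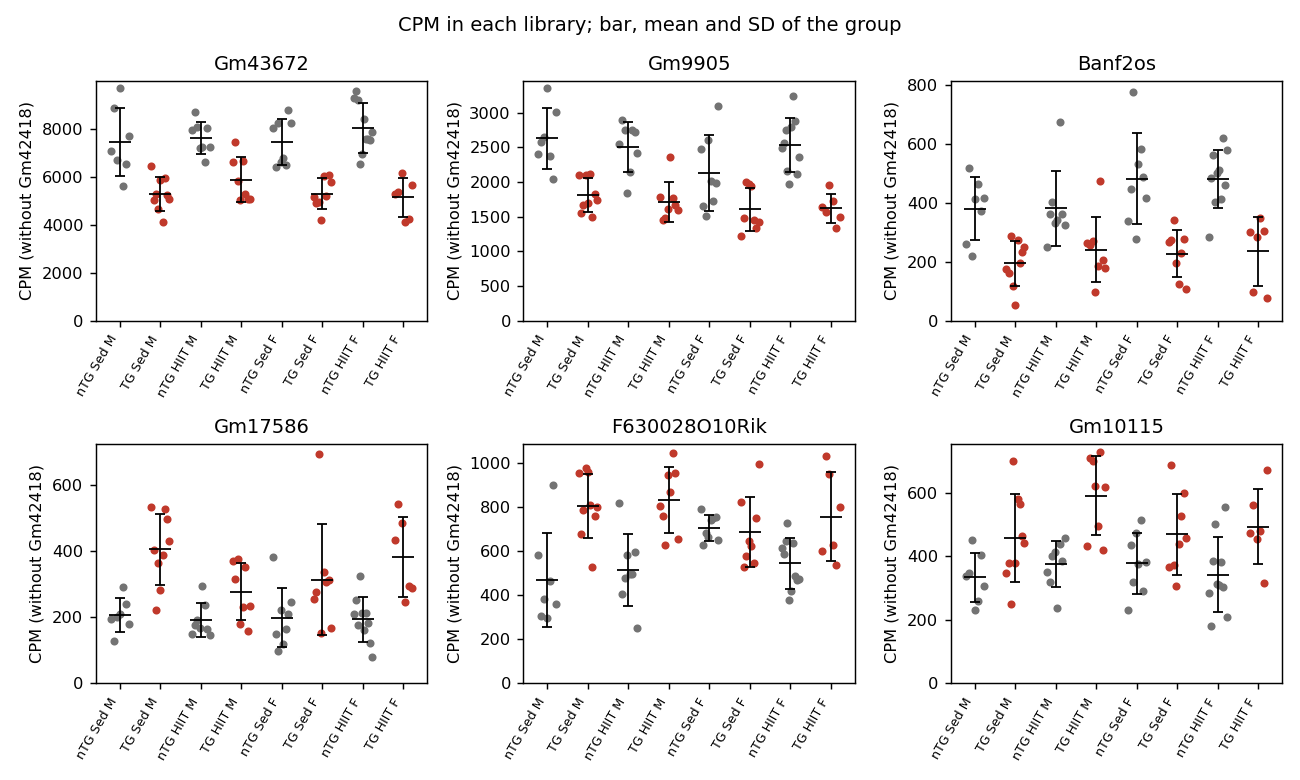
CPM without Gm42418 of 3 transcripts that fell (top row) and 3 that rose (bottom row), 1 point per library in each of the 8 groups, with the group mean and SD as bars (n = 6 to 10). For Gm43672 the TG points of Sed F and HIIT F all lie below the nTG points of their stratum, while F630028O10Rik in Sed F shows TG and nTG at similar heights.

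The 5 most abundant transcripts changed little. Gm42427 fell by 0.13 ± 0.03 on the log2 scale (adjusted p = 0.00437, edgeR) and was the only one of the 5 past the threshold. That call was lost with the same-named gene column as library size (adjusted p = 0.205, edgeR) and without HIIT F. Gm42418, itself left out of the library size, had a log2 fold change of 0.13 ± 0.05 (adjusted p = 0.0858, edgeR). By stratum it had 0.23 in Sed M and 0.38 in Sed F, and -0.03 in HIIT M and -0.05 in HIIT F. Malat1, the nuclear speckle lncRNA, had 0.09 ± 0.04 (adjusted p = 0.0924, edgeR), with 141840 ± 13907 CPM in nTG and 150050 ± 18646 in TG. The other two, 2900097C17Rik and the imprinted Peg13, had -0.02 ± 0.04 and -0.01 ± 0.04.

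How often a transcript was called followed its abundance. Of the 315 transcripts with 5 to 10 counts on average, 14 were called (4.44%), and their median SE was 0.215 on the log2 scale. Of the 22 with 500 counts or more, 10 were called (45.5%), with a median SE of 0.043. The median size of a called change was 0.653 in the first of these groups and 0.183 in the last. In simulated tables of the same 1103 transcripts with 200 changed, the test recovered 18.5% of changes of 0.25, 69% of changes of 0.5 and 99% of changes of 1 on the log2 scale. Of the 37, 145 and 210 calls in these tables, 0, 7 and 12 were of unchanged transcripts. Rises and falls were equal in number and the library sizes were given, so the choice of scaling was not tried. Recovery was not split by abundance.

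The calls were also counted by the position of the transcript relative to coding genes. Positions came from GENCODE M21 (GRCm38), which matched 1019 of the 1103 transcripts. All 25 called transcripts that overlap a coding gene on the same strand were higher in TG (498 tested, 5.02% called), and the median log2 fold change of this class was 0.135. Of the 36 called that overlap a coding gene on the opposite strand, 11 were higher and 25 lower (274 tested, 13.1% called, median -0.0241). Of those that start within 5 kb of a divergent coding gene, 5 were higher and 6 lower (69 tested, 15.9% called), and of those further away 8 and 12 (148 tested, 13.5% called). No transcript within 5 kb downstream of a same-strand gene was called (30 tested). By biotype, called TEC transcripts (models that await experimental proof) were higher in 29 of 37 cases (563 tested, 6.57% called) and lincRNAs in 5 of 21 (153 tested, 13.7% called), beside 4.99% called higher and 4.26% called lower over all transcripts. The annotation lists 6 of the tested transcripts as protein-coding, and 1 of these was called (16.7%).

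The same-strand and opposite-strand splits depend on the scaling, and the other splits were not recomputed. With TMM factors the same-strand class had 10 called higher and 2 lower, with DESeq2 size factors 10 and 1, with Gm42418 kept in the library size 3 and 1, with the same-named gene column 4 and 0, and with the joined gene column 22 and 0. The opposite-strand class had 7 and 37, 7 and 37, 4 and 36, 4 and 18, and 11 and 23 in the same order. The class medians shifted together, to 0.0479 (same strand) and -0.114 (opposite strand) where Gm42418 was kept and to 0.144 and -0.0137 with joined gene columns. A change of library size moves all transcripts by nearly the same amount, so their order says nothing about the scaling.

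Over all tested transcripts the balance of higher and lower calls moved in the same way. With Gm42418 kept in the library size, 77 transcripts were called, 12 higher and 65 lower. TMM gave 92 (26 higher and 66 lower) and DESeq2 size factors 88 (26 and 62). The joined gene column gave 93 (50 and 43), and the same-named gene column 43 (11 and 32). Leaving the 5 most abundant transcripts out of the library size, chosen after seeing the data, gave 101 (55 and 46). Of the 102, 42 were called in the same direction under all 6 other scalings, 10 of them higher and 32 lower. None was called in the opposite direction under any. The 6 include the same-named gene column, which did not match the lncRNA column, and its 43 calls cap this count. At least 4 of the 6 called 72 of the 102 in the same direction, 26 higher and 46 lower. The median log2 fold change of all 1103 lay between -0.000273 with Gm42418 kept and 0.0942 with joined gene columns. Among the calls lost under a scaling were rises of abundant transcripts. Gm26782, 4632427E13Rik and Gm37352 were not past the threshold with Gm42418 kept (adjusted p = 0.185, 0.16 and 0.185, edgeR), and Gm29129 and RP23-235I2.1 were not with the same-named gene column (adjusted p = 0.0704 and 0.0554, edgeR). Gm17586, F630028O10Rik, Gm10115, Gm15866, 0610012D04Rik and Gm43953 were past it under all 6, and so were the 11 transcripts named above as falling, Gm42427 aside.

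**Figure D3:**
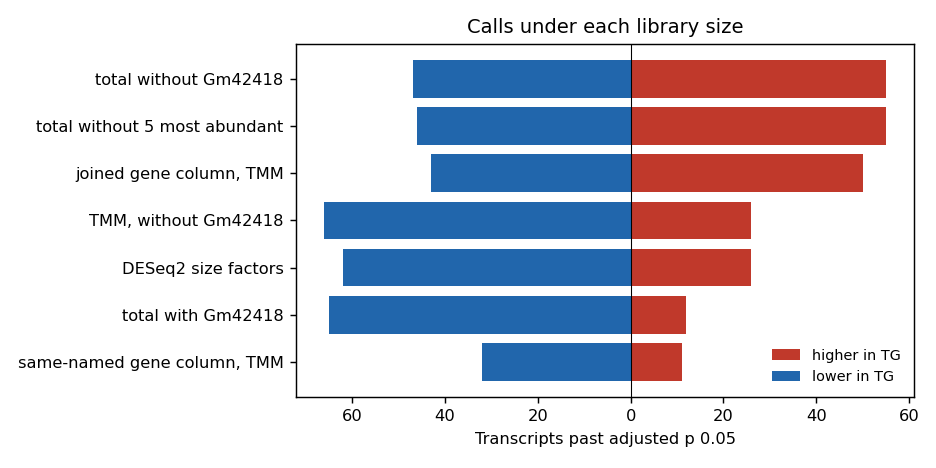
Transcripts past an adjusted p of 0.05 under 7 choices of library size, with those lower in TG to the left and those higher to the right. The count of lower transcripts is between 32 and 66, and the count of higher ones falls from 55 to 11.

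The M and F mice give 2 separate sets of 32 libraries. In M alone 38 transcripts were called (3.45% of those tested, 19 higher and 19 lower). Of these 38, 36 had the same sign in F, 26 had an unadjusted p under 0.05 in F (14.1% of all tested did), and 10 were called in F too. In F alone 14 were called (1.27%, 5 higher and 9 lower), all 14 with the same sign in M. The 10 called in both sets, 26.3% of the M calls and 71.4% of the F calls, had the same direction in both. They were Gm43672, Gm9905, Banf2os, E230013L22Rik, Gm45012, RP23-166L22.2 and RP24-96N12.2, lower in TG, and Gm17586, Gm29129 and RP23-235I2.1, higher in TG. RP24-96N12.2 was named after its values were seen. Gm43672 had a log2 fold change of -0.43 ± 0.07 in M and -0.57 ± 0.07 in F, Banf2os -0.82 ± 0.17 and -1.05 ± 0.17, and Gm17586 0.76 ± 0.16 and 0.82 ± 0.19 (SE). Over all 1103 transcripts, 66.8% had the same sign in M and F. DESeq2 called 55 transcripts in M and 31 in F, and the shares above rest on the edgeR calls.

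**Figure D4:**
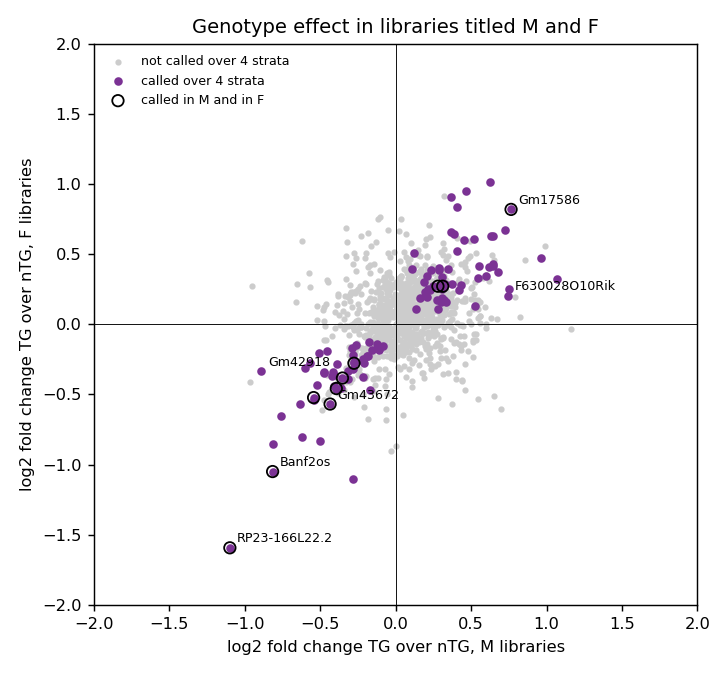
Log2 fold change of TG over nTG in the 32 M libraries (horizontal) and the 32 F libraries (vertical), 1 point per tested transcript. Purple points are the 102 called over the 4 strata, and the 10 ringed ones, called in M and in F, lie at the lower left or the upper right.

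No transcript passed the threshold for a difference of the genotype effect between M and F. The lowest adjusted p was 0.798, with 56 transcripts at an unadjusted p under 0.05, and DESeq2 also called 0 (59 at an unadjusted p under 0.05). Nor did any pass for a difference between HIIT and Sed mice, with a lowest adjusted p of 0.222, shared by Gm42418 and 2 others, Gm12592 and Gm13479, and 68 at an unadjusted p under 0.05 (DESeq2 0 and 75). Among the 102, an unadjusted p under 0.05 was seen for 6 by M and F and for 8 by training. Among the 6 by M and F were 3 of the named transcripts, each with the larger change in M. They were F630028O10Rik (log2 fold change 0.74 ± 0.13 in M and 0.20 ± 0.11 in F, interaction p = 0.00251, adjusted p = 0.798, edgeR), Prr33 (-0.45 ± 0.08 and -0.19 ± 0.08, interaction p = 0.0239, adjusted p = 0.936, edgeR) and Gm42918 (-0.89 ± 0.15 and -0.33 ± 0.18, interaction p = 0.021, adjusted p = 0.936, edgeR). None of the 3 differences passed adjustment.

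Transcripts with a known role were followed in 6 lists. These covered imprinted lncRNAs, hosts of small nucleolar RNAs, hosts of microRNAs, nuclear lncRNAs, cardiac lncRNAs and transcripts that encode micropeptides. They had 3, 3, 1, 6, 2 and 0 members among those tested, 13 distinct transcripts in all, and 1 of the 13 was called, beside 9.25% of all transcripts tested. This was the imprinted Kcnq1ot1, which silences its neighbours on one parental chromosome. It had 14567 to 22749 CPM in nTG (median 17799) and 16786 to 23108 in TG (median 19774), with overlap in each stratum. The log2 fold change was 0.12 ± 0.04 (SE; adjusted p = 0.0210, edgeR), and in the gene table with joined columns 0.09 (adjusted p = 0.154, edgeR). It was past the threshold in 12 of 21 other settings, and not with TMM (adjusted p = 0.361, edgeR) or with Gm42418 kept (adjusted p = 0.843, edgeR). Mhrt had 210 ± 76.6 CPM in nTG and 179 ± 71.7 in TG (log2 fold change -0.22 ± 0.14, adjusted p = 0.356, edgeR). Meg3 had 0.14 ± 0.27, Tug1 -0.06 ± 0.07, the Xist activator Jpx 0.30 ± 0.11 (adjusted p = 0.0756, edgeR), and the snoRNA hosts Snhg5, Snhg8 and Snhg18 0.20 ± 0.15, 0.17 ± 0.15 and 0.17 ± 0.09.

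The coding neighbours of the named transcripts were read from the gene table. With columns by name, none of the 56 neighbours with counts passed the threshold, 4 had an unadjusted p under 0.05, and none of the 16913 genes of the table passed it (677 at an unadjusted p under 0.05, edgeR; DESeq2 0 and 695). With joined columns, 31 of the 56 passed, 17 higher and 14 lower, beside 38.6% of all 16913 genes (18.3% higher and 20.3% lower). All gene values below are from joined columns, and the by-name fold change, which never passed the threshold, is given for each named neighbour that passed.

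Mafg, the divergent neighbour of Gm17586 and the dimer partner of stress response factors such as NRF2, rose with it. It had 47.8 ± 3.13 CPM in nTG and 71.5 ± 6.87 in TG, a log2 fold change of 0.58 ± 0.03 (SE; adjusted p = 5.20e-27, edgeR), and 0.14 ± 0.07 by name. Pycr1, a proline synthesis enzyme on the other side, had 0.14 ± 0.09 (adjusted p = 0.261, edgeR). Vsig4 had 0.792 ± 0.306 CPM in nTG and 1.41 ± 0.338 in TG, a log2 fold change of 0.85 ± 0.12 (SE; adjusted p = 4.03e-08, edgeR), and 0.20 ± 0.14 by name. Rab30 rose by 0.13 ± 0.05 beside 4632427E13Rik (adjusted p = 0.0405, edgeR; -0.00034 by name), C1qtnf7 by 0.26 ± 0.06 (-0.02 by name) and Pdzrn3 by 0.29 ± 0.04 (0.13 by name). Tep1, opposite to Gm26782, and Celf2, which overlaps Gm10115, rose by 0.09 ± 0.02 and 0.06 ± 0.02 (-0.0084 and -0.0035 by name). Trafd1, opposite to Gm42918, fell by 0.09 ± 0.02 (0.03 by name). On the other side of Gm26782 and 7979 bases away, Klhl33 fell by 0.39 ± 0.06 (0.02 by name). Gata3, the next gene on one side of Gm10115 but 2905398 bases away, had a mean of 1.52 CPM in nTG. It fell by 0.25 ± 0.10 (adjusted p = 0.0426, edgeR), with -0.33 by name. Tshz3, a transcription factor gene 125023 bases from Gm29129, rose by 0.19 ± 0.04 (0.07 by name). Msn, which links actin to the membrane, lies 71374 bases from F630028O10Rik on its far side and rose by 0.11 ± 0.03 (0.04 by name). Iba57, an iron-sulfur cluster factor 148076 bases from Gm10435, fell by 0.20 ± 0.03 (-0.05 by name).

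Several neighbours stayed short of the threshold. Tbl1xr1, beside Gm43672, had a log2 fold change of -0.03 ± 0.03 (adjusted p = 0.406, edgeR), and Mettl9, opposite to Gm9905, -0.03 ± 0.03 (adjusted p = 0.473, edgeR). Pdgfa had 0.01 ± 0.04 and Rab20 -0.07 ± 0.03, neither past the threshold. Among those that passed, Ttc7 went against 0610012D04Rik and fell by 0.45 ± 0.03 (-0.06 by name). Lsp1 rose by 0.28 ± 0.05 (-0.0028 by name) where Prr33 fell. Kcnq1, which overlaps Kcnq1ot1, fell by 0.13 ± 0.03 (-0.06 by name). The imprinted growth inhibitor gene Cdkn1c, 161790 bases from Kcnq1ot1, fell by 0.22 ± 0.05 (-0.02 by name). In the same direction as Gm45012, the nearby Dgat2, which makes triglycerides, fell by 0.39 ± 0.03 (-0.04 by name), and Mogat2 itself had -0.29 ± 0.13 (adjusted p = 0.082, edgeR).

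The fold change of each tested transcript was also set beside that of the measured coding gene it overlaps. Pearson's r of the 2 log2 fold changes was 0.44 over 492 same-strand pairs and 0.213 over 262 opposite-strand pairs (0.21 and 0.0669 with gene columns by name). These are descriptions across transcripts, whose values share libraries, and with same-strand pairs possibly reads. Of the 25 called same-strand transcripts, 21 had the sign of their host, and of the 17 whose host was called too, 15 did. Of the 34 called opposite-strand transcripts with a measured partner, 22 had its sign, and of the 19 whose partner was called, 13 did. Over all pairs the signs matched in 54.5% (same strand) and 53.1% (opposite strand). How strand was used in the authors' counting is not given in the sources used here, so reads of overlapping genes may not be told apart.

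A few other called transcripts and the genes they overlap are given as examples, picked from 59 such pairs after their values were seen. Gm26794 and its opposite-strand partner Kcnj3, a subunit of the acetylcholine-gated potassium channel, had log2 fold changes of -0.41 and -0.39. 9330158H04Rik and Chrm2, the muscarinic receptor that opens this channel, had -0.36 and -0.28, and D330025C20Rik and the potassium channel gene Kcng2 -0.23 and -0.27. Gm17473 and Angpt1, the vessel-stabilising ligand of TIE2, had -0.83 and -0.98. Atcayos went the other way from Nmrk2, an enzyme of NAD synthesis, with -0.21 against 0.68. On the strand of the gene they overlap, Gm43921 at the collagen gene Col1a2 had 0.52 against 0.46, Gm19514 at the metalloprotease gene Adam12 0.64 against 0.47, and Gm44416 and Gm44417 at the collagen-binding receptor gene Antxr1 0.64 and 0.47 against 0.33. A130071D04Rik at the leukocyte gene Ptprc had 0.36 against 0.27. All of these lncRNAs and partners passed the threshold in their own table, the partners with joined columns alone. By name the partners had log2 fold changes from -0.32 (Angpt1) to 0.14 (Col1a2).

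**Figure D5:**
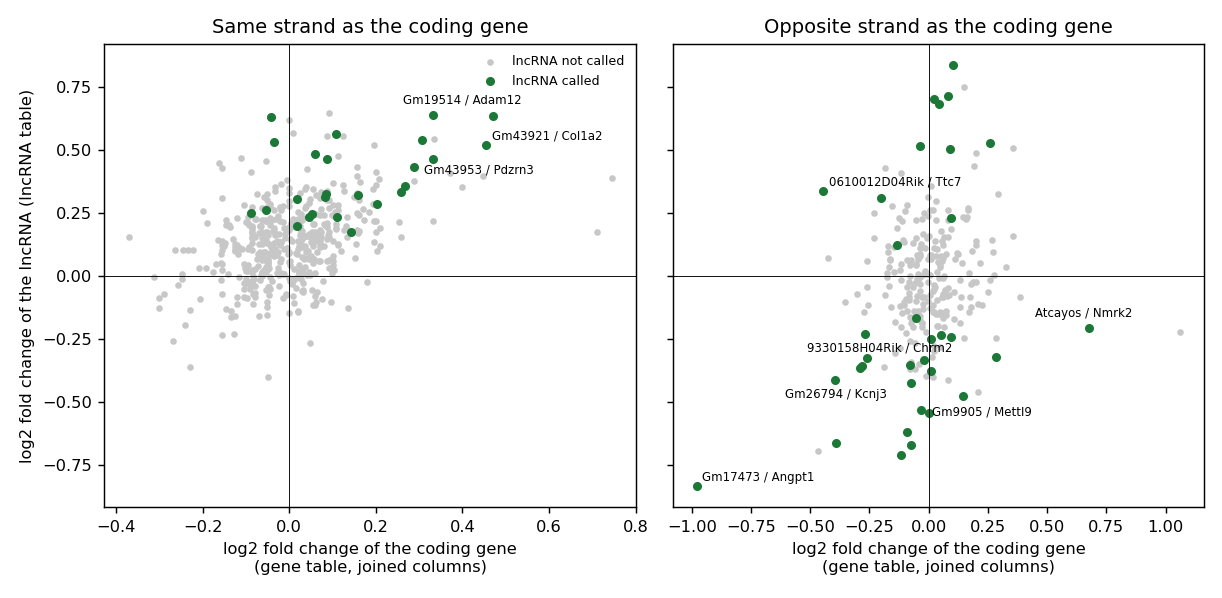
Log2 fold change of a tested lncRNA (vertical, lncRNA table) against that of the coding gene it overlaps (horizontal, gene table with joined columns), for 492 same-strand pairs (left) and 262 opposite-strand pairs (right). Called lncRNAs are green; in the left panel all lie above 0, and in the right panel they lie on both sides.

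Markers of cell types were counted in the joined gene columns, where 38.6% of all 16913 genes passed the threshold. All 6 fibroblast markers were higher in TG, and their summed level ran from 591.7 to 1610 CPM in nTG and from 740.4 to 1987 in TG. All 6 macrophage markers were higher too, with sums of 123.8 to 265.7 CPM in nTG and 169.7 to 338.1 in TG. Of 8 cardiomyocyte markers 1 was higher and 6 were lower, while their sum ran from 104300 to 119600 CPM in nTG (median 112000) and from 104900 to 132700 in TG (median 116500). Count and sum thus differ in direction. The 1 higher marker, Ttn (log2 fold change 0.21), reached 71110 CPM, the highest value of the 8. Sums were scaled to library totals, while the calls used TMM scaling. Of 4 atrial markers 1 was higher and the sum ran from 20.22 to 627.1 CPM in nTG and from 34.41 to 741.1 in TG. Of 6 blood markers 2 were lower, with sums of up to 1087 CPM in nTG and 4861 in TG, and without the 3 TG libraries highest in blood genes 87 lncRNAs were called (44 higher and 43 lower). Of 5 endothelial markers 2 were lower, of 3 skeletal muscle markers 2 were higher and 1 lower, and none of 3 adipocyte markers passed the threshold. The part of these cell types in the changes of Gm43921, Gm19514, F630028O10Rik, A130071D04Rik and the other lncRNAs was not tested. In whole heart tissue, fewer cells of a type and less RNA per cell cannot be told apart.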

How the data were processed

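RNA of mouse hearts was depleted of ribosomal RNA and sequenced, per the labels' protocols. As deposited, the lncRNA table holds the authors' expected counts (estimated counts, fractional in 45 of 3787 rows), and the other table holds the authors' raw counts of 16913 genes. The submitters' processing notes list cutadapt 2.3, FastQC 0.11.8, MultiQC 1.7, STAR 2.7.8a and RSEM 1.3.3 and the builds GRCm38 and mm10, with no role given. The annotation and strand setting they used are not given in the sources used here.

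Expected counts were rounded to whole numbers. Columns were assigned by name. Transcripts with a mean of at least 5 counts were tested with edgeR 4.0.16 (quasi-likelihood F test) in a model of 4 strata plus genotype, with the column total without Gm42418 as library size and Benjamini-Hochberg adjustment over 1103 transcripts. The SE is the log2 fold change divided by the square root of F. Genes were tested in the same model after TMM scaling. Alternatives used DESeq2 1.42.0, limma 3.58.1 (voom), other scalings, filters, models and left-out libraries. The permutation tests drew 100000 resamples. The test was tried on simulated data.

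Each sample is labelled as a biological replicate, so the spread is taken as that between mice. Replicate numbers are only names: the correlation of deviations had a median of 0.00435 over 205 same-numbered pairs and -0.00241 over 1580 other pairs. No 2 lncRNA columns were identical.

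Named are the 10 rising and 10 falling transcripts with the smallest p, the 5 rising and 5 falling with the largest change among those with a mean of at least 20 counts, the 5 most abundant, list members past the threshold, and their coding neighbours. Not every such neighbour is given in the text. The members and lists were chosen with earlier results of these data known.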

Additional observations from a re-analysis of the deposited data

Results flagged for a closer look

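Among 240 sets of values (the named transcripts and library measures in each of the 8 groups), 13 held a library far from the others of its group, where chance gives about 12. Gm17586 had 693.4 CPM in TG Sed F replicate 3, against 152.8 to 337.3 in the other 7. RP23-235I2.1 had 5682 CPM in nTG Sed F replicate 1 (others 3447 to 4343), and Gm15866 had 137.2 CPM in nTG Sed F replicate 2 (others 246.3 to 330.7). Gm9905 had 2356 CPM in TG HIIT M replicate 5, against 1448 to 1778. Banf2os stood high in 2 libraries, with 474 CPM in TG HIIT M replicate 6 (others 95.84 to 271.4) and 674.7 CPM in nTG HIIT M replicate 6 (others 249.9 to 402.3). Gm10435 had 9303 CPM in nTG Sed F replicate 8, against 4911 to 6911. RP23-166L22.2 had 55.5 CPM in TG Sed F replicate 1 (others 0 to 24.99) and 227.2 CPM in nTG HIIT M replicate 2 (others 94.53 to 142). G730003C15Rik had 687.1 CPM in TG Sed F replicate 5, against 311.9 to 486.4. Malat1 had 200300 CPM in TG Sed F replicate 7, against 139700 to 154900. Gm42427 was low in TG HIIT F replicate 6, with 52320 CPM against 61920 to 66570. The total without Gm42418 was 110434 counts in TG Sed M replicate 5, against 64584 to 87809 in the other 8. Each called transcript among these passed the threshold when any 1 of these libraries was left out. Leaving out all of them together was not tried.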

How the results depend on the processing

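The 102 calls fell to 43 (11 higher) with the same-named gene column as library size, 46 (22 higher, 24 lower) without HIIT F, 61 (34 higher, 27 lower) without HIIT M and 60 (24 higher) without Sed M, and were 115 without Sed F. The 55 higher calls became 12 with Gm42418 kept, 26 with TMM or DESeq2 size factors and 24 among transcripts with no same-strand coding gene, a setting chosen after seeing the data like those without the 5 most abundant transcripts (101 calls) and without 3 libraries high in blood genes (87). Fewer libraries or transcripts entered where strata or a class were left out, yet the calls rose without Sed F. The cause of these moves was not tested. Leaving out 1 library at a time gave 83 to 115 calls. The F calls rose from 14 to 31 with DESeq2. A replicate block on the shared numbers gave 92 calls, all among the 102. For single named transcripts, none changed sign past the threshold in any setting, and 21 calls of named transcripts were lost, 9 of them of Kcnq1ot1 and others of Gm15866 and 0610012D04Rik without Sed M and Gm42427 without HIIT F.

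The Gm42418 share difference was 0.778 points without Sed F, 1.39 without Sed M, 2.95 without HIIT F and 2.87 without HIIT M. The lncRNA CPM relative to the gene table's total, without Gm42418, differed between TG and nTG by -38.1 by name (permutation p = 0.651) and by 79.5 with joined columns (permutation p = 0.00658). Neighbours called were 0 by name and 31 with joined columns. Without a filter on low counts, 138 of 3787 transcripts were called. In the lowest bin of mean counts the median SE was 0.215, in the highest 0.043.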

Other observations

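A stretch of chromosome 6 from 86 to 89 Mb (GRCm38), picked after the values were seen, held 20 tested transcripts, of which 6 were called, 3 higher and 3 lower in TG. Over all of chromosome 6, 13.5% of the tested transcripts were called, and over all 1103 transcripts the share was 9.25%. 2310040G24Rik, Gm44386 and 2610306M01Rik had log2 fold changes of -0.42 ± 0.12, -0.39 ± 0.10 and -0.20 ± 0.06 (SE), and Gm44416, Gm44417 and Gm44168 had 0.64 ± 0.17, 0.47 ± 0.15 and 0.63 ± 0.21. Gm44416 and Gm44417 share the host Antxr1.

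Of the 28 transcripts followed by name, 21 also have a row in the gene table. With joined columns, Gm43672 had a log2 fold change of -0.49 there, Banf2os -1.02, F630028O10Rik 0.45 and Gm43953 0.48, beside -0.50, -0.93, 0.47 and 0.43 in the lncRNA table. Gm26782 differed between the tables, with -0.01 in the gene table (adjusted p = 0.85, edgeR) and 0.23 in the lncRNA table, at mean counts of 506.6 and 826.4. Kcnq1ot1 had 0.09 in the gene table (adjusted p = 0.154, edgeR) and 0.12 in the lncRNA table, where it was past the threshold. Malat1 passed it in the gene table, at 0.11 (adjusted p = 0.0444, edgeR), and not in the lncRNA table. Prr33 had -0.13 and -0.32, at mean counts of 716.2 and 326.1. Malat1 had 204400 counts per library in the gene table and 13250 in the lncRNA table. The rows come from the same libraries and are no independent check.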
